A study of Danio rerio with 2 samples.

Results

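To examine how strongly accessible chromatin was grouped along the genome of retinal pigment epithelium (RPE) precursors, stretches of neighbouring open peaks were assembled from ATAC-seq counts. Peaks were selected on their measured level: a peak was taken as strong when its mean CPM over both libraries (its count as a share of all counts in peaks of the library, scaled to 1e6) was at least 10, and only chromosomes 1 to 25 were used. Strong peaks separated by gaps of at most 12.5 kb were joined, and joins of at least 4 strong peaks were kept. A join was left out when one of its peaks lay in a dense run, which is a series of 10 or more listed peaks each less than 2000 bp from the next. This gave 1202 stretches with 6965 strong peaks, which were 28.0% of the 24855 strong peaks on these chromosomes and 2.92% of the 238369 listed peaks. Stretches were numbered by their summed CPM, so stretch 1 had the highest. Because the members were chosen by the CPM of these same libraries, their summed levels and spacing are given as a description without a test.

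The data comprised 2 libraries of a single group, RPE replicate 1 and RPE replicate 2, both from zebrafish embryos of genotype tg(Enh-1_bHLHe40:GFP) at 23 hours post fertilization (hpf). GFP-positive cells were sorted by flow cytometry from dissociated whole embryos, so cell identity rested on a reporter driven by an enhancer of the bhlhe40 locus. The study mentions that this enhancer is also active in the ciliary margin and in neural crest cells around the eye after optic cup folding. It expects minor contamination at most at 23 hpf. Its reporting summary, however, describes the sorted population as continuous and gives only a lower bound for purity, which leaves room for other cells. The methods of the study call the replicates biological, and its reporting summary describes pooled embryos of several random crosses. The labels do not say whether the replicates share a clutch or a sort. Neural retina libraries of the same study were not analysed here, and no contrast between domains was made. RPE replicate 1 held 23996755 counts in peaks and RPE replicate 2 held 19653966, so that 10 CPM stood for about 240.0 and 197 counts. The peak list was that of neural retina and RPE precursors together.

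ATAC-seq uses the Tn5 transposase to cut and tag DNA where nucleosomes leave it free, and the peaks it finds include promoters and enhancers. Genes that direct development are often served by several enhancers that lie near each other, within introns or in the flanking intergenic DNA, and such groups can be seen as runs of open peaks. The RPE is the pigmented, single-layered epithelium behind the neural retina. It arises from the optic vesicle under transcription factors of the Otx and Mitf families, and in zebrafish its cells flatten and spread around the optic cup.

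Stretches differed widely in size and level. Their summed CPM had a minimum of 44.9, a median of 99.8 and a maximum of 707. In RPE replicate 1 the summed CPM ranged between 43.0 and 791 with a median of 106, and in RPE replicate 2 between 42.2 and 622 with a median of 94.5. The length, taken between the first and the last strong peak, was 2.61 kb for the shortest stretch, 21.0 kb for the median and 147 kb for the longest. Most stretches were small, with 496 of 4 strong peaks, 254 of 5, 165 of 6, 196 of 7 to 9 and 91 of 10 or more. Those 91 stretches held 18.6% of the CPM of all stretches, and 27 of them had 15 or more strong peaks. Together the stretches covered 29.2 Mb, of which the strong peaks themselves made up 3.94 Mb.

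Counts in the strong peaks of the stretches amounted to 15.2% of all counts in peaks in RPE replicate 1 (95% exact Clopper-Pearson interval 15.19 to 15.22%) and 13.4% in RPE replicate 2 (13.39 to 13.42%). The mean share was 14.3% ± 1.27 (SD, n = 2). The 17890 strong peaks outside the stretches held 33.7% and 32.4% of the counts. Intervals here cover counting error only. Both libraries ordered the stretches alike, with a Spearman correlation of 0.970 over the 1202 stretches and of 0.914 over their 6965 peaks, as a description over regions that share the libraries. Of the 20 stretches with the highest summed CPM in each library, 17 were shared. Part of this likeness was built in, because the same peaks, chosen on the mean of both libraries, were summed in each. The number of peaks, equal in both libraries, had a Spearman correlation of 0.777 with the summed CPM. The plot of summed CPM in both libraries shows most stretches above the line of equal CPM.

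**Figure D1:**
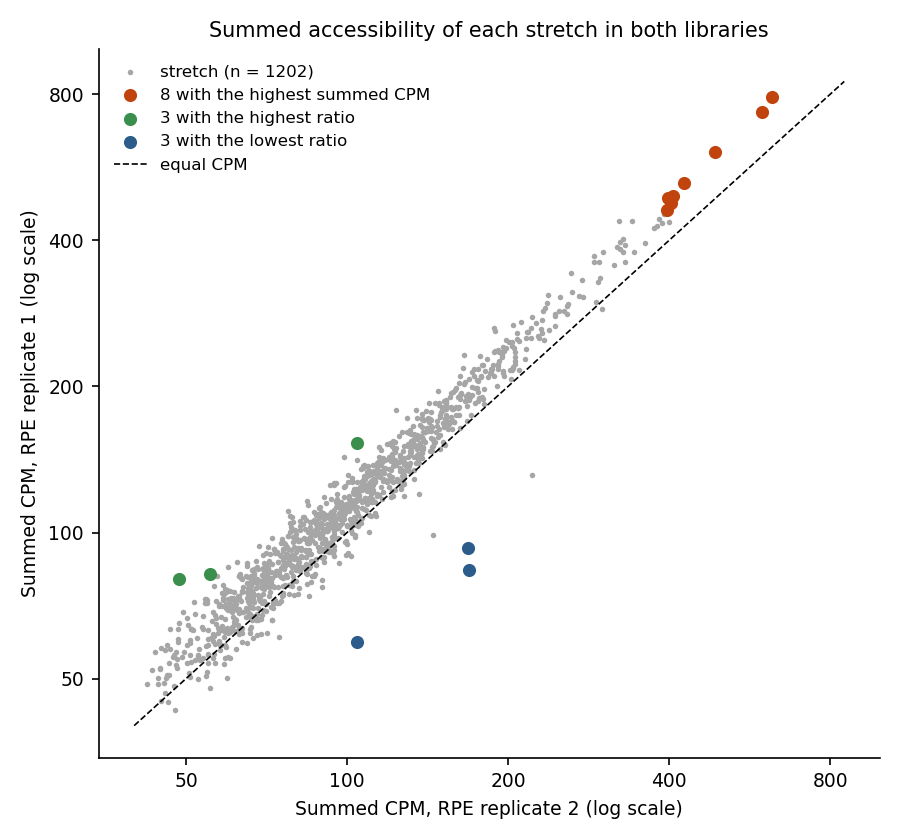
Summed CPM of the strong peaks of each of the 1202 stretches in RPE replicate 1 (vertical axis) and RPE replicate 2 (horizontal axis), on log scales, with the line of equal CPM. The 8 stretches with the highest summed CPM all lie above the line, and 3 stretches with the lowest ratio lie well below it.

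The top of the ranking was formed by long stretches with many peaks. Stretch 1 (chr22:11109641-11215822, danRer10) had 30 strong peaks over 106 kb, with summed CPM of 791 in RPE replicate 1 and 622 in RPE replicate 2. Its single peaks were between 11.3 and 73.3 CPM in RPE replicate 1. The strongest, peak130536, stood 20th along the stretch with 73.3 CPM in RPE replicate 1 and 54.6 CPM in RPE replicate 2, and held 9.05% of the CPM of the stretch. Stretch 1 was therefore built from many peaks of moderate level instead of a single strong one. Stretch 2 (chr5:31904861-32051782), the longest at 147 kb, had 25 strong peaks and 735 CPM in RPE replicate 1 and 597 CPM in RPE replicate 2. Its strongest peak, peak182782, was 1364 bp wide and reached 91.7 and 78.6 CPM. Between its strong peaks lay 31 weaker listed peaks, the most of any stretch.

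Stretches 3 to 8 followed on chromosomes 10, 16, 14, 23, 3 and 25. Stretch 3 (chr10:28308707-28405229) had 25 strong peaks with 609 CPM in RPE replicate 1 and 488 CPM in RPE replicate 2. Stretch 4 (chr16:35497893-35586621) had 22, with 524 and 427 CPM. Stretch 5 (chr14:30738907-30825198) had 17, with 494 and 407 CPM, and stretch 6 (chr23:23395817-23475816) had 18, with 488 and 398 CPM. Each of these stretches was higher in RPE replicate 1. Stretch 7 (chr3:23412025-23451249) was more compact, with 16 strong peaks in 39.2 kb and 477 and 404 CPM. Its strongest peak, peak162593, held 18.4% of its CPM, with 86.5 CPM in RPE replicate 1 and 75.7 CPM in RPE replicate 2. Stretch 8 (chr25:34604458-34650955) had 20 strong peaks with 462 and 397 CPM. Its strongest peak held 8.38% of its CPM, the smallest such share of all stretches. The next smallest shares were those of stretch 12 (chr25:35760532-35820897), with 22 strong peaks and 8.46%, and stretch 26 (chr22:18521156-18605169), with 18 and 8.64%. This share cannot fall below that of an even split, so only stretches of many peaks can have such low values. Gene names were taken only from tables of the study, in which stretch 8 alone of these 8 overlapped gene bodies, both of predicted genes. Gene body means here the interval that the study lists as the position of a gene. Several genes can share such an interval, so it can reach beyond the gene itself. For example, all 7 strong peaks of stretch 579 lay in the intervals of both hoxb3a and hoxb5a.

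**Figure D2:**
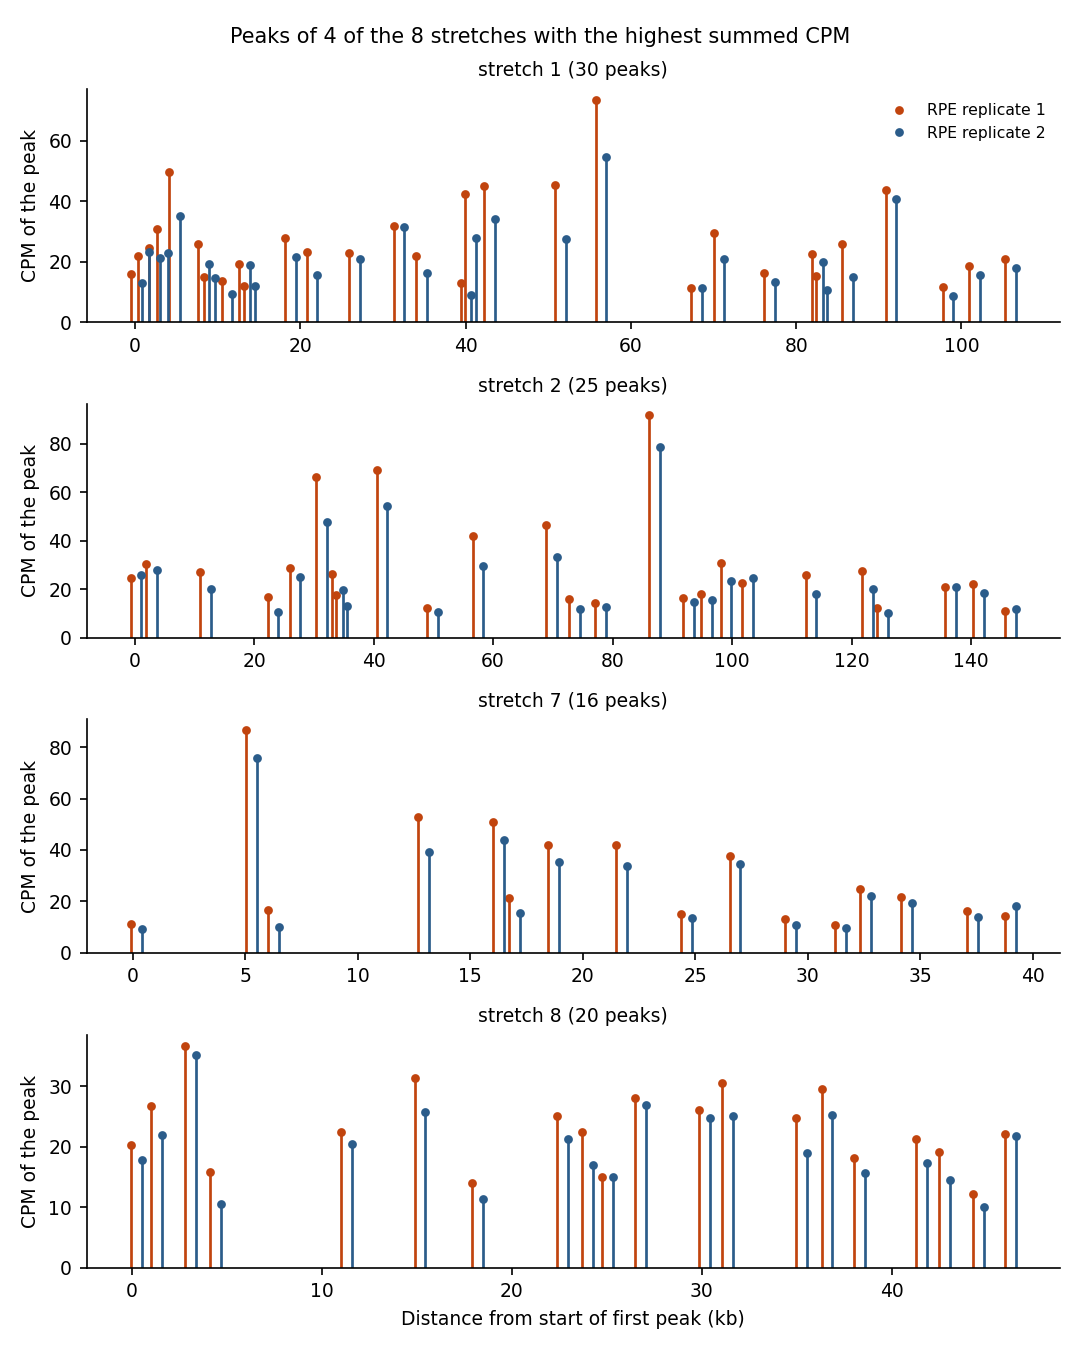
CPM of each strong peak (vertical axis) against its distance in kb from the start of the first peak (horizontal axis) in stretches 1, 2, 7 and 8, for RPE replicate 1 and RPE replicate 2. Points of the libraries are drawn slightly apart. Both libraries show the same strongest peak in each panel, and in stretch 8 no peak stands out.

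Among the longest stretches, stretch 15 (chr17:37742952-37850525) reached 108 kb with only 16 strong peaks, and 439 CPM in RPE replicate 1 and 341 CPM in RPE replicate 2. Stretch 9 (chr9:34070090-34165950) had 22 strong peaks over 95.9 kb, with 453 and 392 CPM. At the other end of the ranking, stretch 1202 (chr9:490303-492914) packed 4 strong peaks into 2.61 kb. Its summed CPM was 44.9 in each library, while its single peaks were between 9.71 and 14.2 CPM in RPE replicate 1 and between 10.3 and 12.1 CPM in RPE replicate 2. All 4 of its peaks thus lay close to the minimum that defines a strong peak.

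Level within a stretch was usually shared by several peaks. The strongest peak held a median of 30.4% of the CPM of its stretch, with a range of 8.38 to 64.5%. The number of peaks sets a floor to this share, which is highest for stretches of 4. Stretch 1202, with 4 peaks of similar level, had 27.2%. The same peak was the strongest in both libraries in 988 stretches (82.2%). It was the first or last peak of the stretch in 434 stretches (36.1%). For stretches of 4 peaks this share was 46.0%, beside the 50% of positions that are ends, and for stretches of 10 or more it was 12.1%, beside 15.1% of positions. The largest shares were found in stretch 408 (chr20:4415762-4438063), stretch 603 (chr19:15634094-15665369) and stretch 357 (chr25:29751460-29760661), with 64.5%, 62.9% and 59.2%. Each of these had 4 strong peaks. In stretch 408 the other 3 peaks were at 11.4 to 17.6 CPM in either library, but peak111131 had 54.6 CPM in RPE replicate 1 and 102 CPM in RPE replicate 2. Stretch 357 overlapped the gene body of hsd17b12a, which encodes a hydroxysteroid dehydrogenase, with 3 of its 4 strong peaks inside it.

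Strong peaks in stretches were slightly narrower and a little higher than the strong peaks elsewhere. Their median width was 528 bp (range 203 to 2138 bp), against 581 bp for the other strong peaks. Their median CPM was 17.2, against 15.4 for the other strong peaks, and their median CPM per kb of width was 34.2, against 28.0. Of the 100 strongest peaks on chromosomes 1 to 25, 42 were in a stretch, and of the 361 peaks of 50 CPM or more, 150 were (41.6%), beside 28.0% of all strong peaks. Of the 10 strongest, 1 was. The highest member reached 86.9 CPM. The median gap between neighbouring strong peaks was 3504 bp inside stretches, a value bounded by the rule, against 16585.5 bp over all strong peaks.

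The DNA between strong peaks was not empty. The stretches held 5401 weaker listed peaks, with a median of 4 per stretch, and 77 stretches held none. These weaker peaks contributed 13.8% of the CPM of all listed peaks inside the stretches. Their median level was 3.77 CPM, against 1.55 CPM for weaker listed peaks outside them. Listed peaks of any strength numbered 4.24 per 10 kb inside stretches, against 1.74 per 10 kb on chromosomes 1 to 25, where the stretches themselves are included and the rule favours dense regions.

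The thresholds of the rule fell in a continuum. The lowest members had 10.001 and 10.003 CPM, and the highest peaks under this minimum had 9.999 and 9.996 CPM. A total of 1269 members (18.2%) lay between 10 and 12 CPM, and 591 peaks inside stretches lay between 8 and 10 CPM. The widest gap joined was 12496 bp, the smallest not joined was 12502 bp, and 529 of 5763 gaps within stretches were 10000 bp or more. Joins of 3 strong peaks, just short of a stretch, numbered 1124 with a median of 54.1 CPM, and 840 of them had a higher summed CPM than stretch 1202. A further 20 joins with 136 strong peaks were left out for a dense run. Applied to RPE replicate 1 alone the rule gave 1322 stretches with 7829 peaks, and to RPE replicate 2 alone 1054 stretches with 6028 peaks. Of the stretches from both libraries, 963 (80.1%) shared a member with stretches of each single library. Peaks chosen in RPE replicate 1 alone were at 10 CPM or more in RPE replicate 2 in 84.7% of cases, and peaks chosen in RPE replicate 2 alone were so in RPE replicate 1 in 95.8%.

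Stretches lay on all 25 chromosomes. Chromosome 22 had the largest share of its strong peaks in stretches (37.7%, 46 stretches) and chromosome 12 the smallest (20.1%, 30 stretches). Chromosome 5 held the most stretches, with 75. Relative to the span of listed peaks, chromosome 23 was the richest, with 13.2 stretches per 10 Mb, and chromosome 4 the poorest, with 4.83. Chromosome 4 had only 659 strong peaks over 76.6 Mb, and 29.6% of them were in stretches, beside 28.0% over all chromosomes. Neighbouring stretches were less than 25 kb apart in 96 cases and less than 100 kb apart in 261.

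The rule used the mean of both libraries but not their ratio, and the ratio of RPE replicate 1 over RPE replicate 2 was examined next. The same counts set the mean, so a peak could pass the minimum through 1 library alone. The ratio is therefore not fully independent of the choice of members. For each peak the count in RPE replicate 1 was set against the share of that library in all counts by a two-sided exact binomial test, with Benjamini-Hochberg adjustment over all 238310 peaks with counts and a threshold of 0.05. This test compares these libraries, not conditions. In the stretches 2583 of 6965 strong peaks (37.1%) differed between the libraries, against 26.3% of the other strong peaks and a background of 13.3% of all peaks. Higher counts in RPE replicate 1 were found for 2398 members, with a background of 5.09% in that direction, and higher counts in RPE replicate 2 for 185 members, with a background of 8.21%. Thus 92.8% of the members that differed were higher in RPE replicate 1, against 67.5% for the other strong peaks and 38.3% for all peaks. With TMM library sizes, edgeR's scaling by trimmed means, these shares were 97.6%, 86.9% and 56.4%. The test covers counting error only, treats counts as independent and calls more peaks where counts are higher. At matched levels, 29.1% of members and 23.7% of the other strong peaks differed at 10 to 15 CPM, and 60.7% and 35.1% did at 50 CPM or more. After removal of the trend of the ratio with the summed count, which lowered the median ratios of both sets, 24.2% of members and 24.0% of the other strong peaks differed. Of these, 77.2% of the members and 36.8% of the other strong peaks were higher in RPE replicate 1.

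The median log2 ratio of the members was 0.19, with quartiles of 0.03 and 0.34, against 0.05 for the other strong peaks and -0.10 for all listed peaks. The difference of 0.13 between members and other strong peaks does not depend on how the libraries are scaled, and stood at 0.13 after removal of the trend with the summed count. It followed the number of joined strong peaks. Single strong peaks had a median log2 ratio of 0.01, joins of 2 had 0.07 and joins of 3 had 0.11. Stretches of 4 had 0.15, those of 5 or 6 had 0.18, those of 7 to 9 had 0.21, those of 10 to 14 had 0.24 and those of 15 or more had 0.23. The interquartile ranges of neighbouring classes overlapped. Members were above the other strong peaks on each of the 25 chromosomes. They were also above them at every level, for example 0.18 against 0.05 for peaks of 10 to 15 CPM and 0.20 against 0.05 for peaks of 50 CPM or more. For peaks up to 400 bp wide the medians were 0.18 and 0.04, and for those of 1000 bp or more 0.17 and 0.04. Inner peaks of stretches had a median log2 ratio of 0.20, and the first and last peaks 0.16. The libraries also differed in depth, as given above, and its part in the ratio was not tested.

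**Figure D3:**
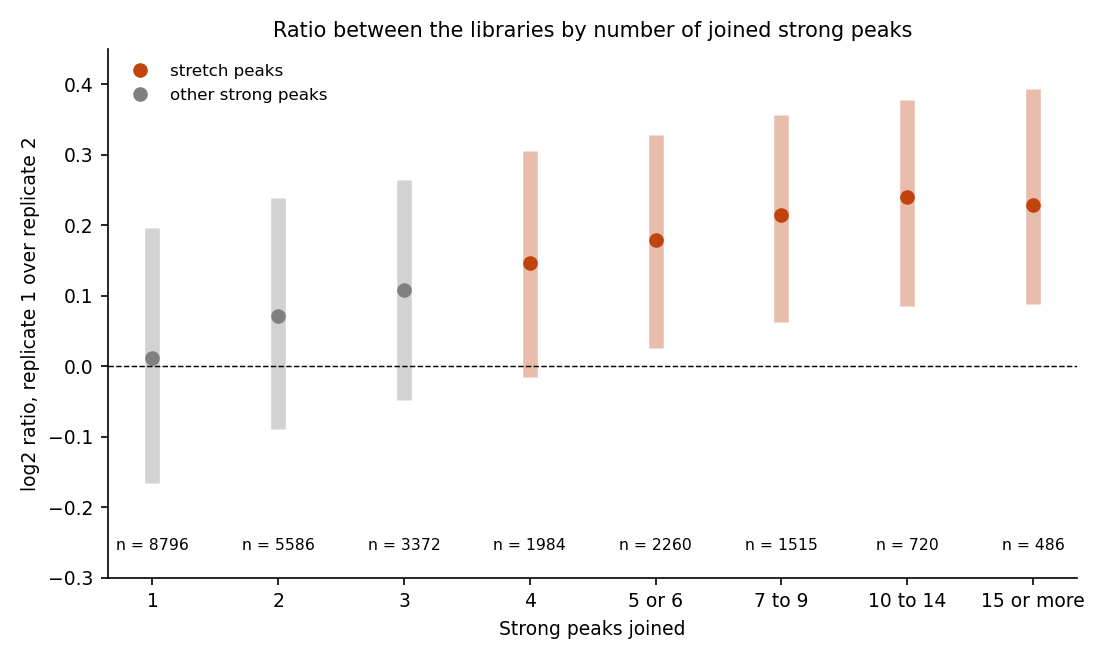
Median log2 ratio of RPE replicate 1 over RPE replicate 2 (points) and interquartile range (bars) of strong peaks, by the number of strong peaks joined (horizontal axis). Single strong peaks have a median of 0.01 and peaks in stretches of 15 or more a median of 0.23, with overlapping interquartile ranges.

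For whole stretches the summed counts were higher in RPE replicate 1, relative to the totals, in 1073 of 1202 (89.3%). The median log2 ratio of the stretches was 0.18, with quartiles of 0.09 and 0.25. The 95% interval for counting error lay above 0 for 887 stretches and below 0 for 33. All strong peaks had a ratio above 0 in 394 stretches and below 0 in 10. No peak differed in 196 stretches and every peak differed in 22, while 90 stretches held peaks that differed in opposite directions. In stretch 1 the log2 ratio was 0.35, and 16 of 30 peaks differed, all higher in RPE replicate 1. In stretch 2 it was 0.30, and 13 of 25 differed, again all higher in RPE replicate 1.

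A few stretches departed from the general shift. Stretch 373 (chr7:52740110-52748455) had 83.8 CPM in RPE replicate 1 and 169 CPM in RPE replicate 2, a log2 ratio of -1.01. Its 4 strong peaks were at 41.7, 11.4, 12.3 and 18.5 CPM in RPE replicate 1 and at 90.3, 26.1, 21.0 and 31.3 CPM in RPE replicate 2, and each passed the test. Stretch 347 (chr11:17430499-17434015) had 92.7 and 168 CPM (log2 ratio -0.86), with all 4 peaks lower in RPE replicate 1 past the threshold. Stretch 830 (chr7:64181591-64191090) had 59.4 and 104 CPM (log2 ratio -0.81), with 4 of 5 peaks lower in RPE replicate 1 past the threshold. Both chromosome 7 stretches also held the members with the lowest ratios, peak210419 (-1.20), peak212186 (-1.12) and peak210418 (-1.12). Of these, peak212186 had 7.29 CPM in RPE replicate 1 and passed the minimum only through RPE replicate 2, at 15.9 CPM.

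On the high side, stretch 1065 (chr9:1315703-1337452) had 80.1 CPM in RPE replicate 1 and 48.4 CPM in RPE replicate 2, a log2 ratio of 0.73. Of its 4 peaks 3 passed the test, with 16.5 against 8.34 CPM, 28.3 against 16.6 CPM and 23.3 against 11.9 CPM. The last, peak223637, had 12.002 and 11.6 CPM. In stretch 992 (chr25:11036319-11043984) the log2 ratio was 0.57, with 3 of 4 peaks past the threshold. Stretch 356 (chr1:46093795-46112691) had 153 CPM in RPE replicate 1 and 104 CPM in RPE replicate 2 (0.55), and all 6 of its peaks were higher in RPE replicate 1 past the threshold. The members with the highest ratios were peak2499 (1.02), peak191009 (1.01) and peak223629 (0.98), each at 10.1 to 12.4 CPM on average. They had 13.5, 15.8 and 16.5 CPM in RPE replicate 1 and 6.67, 7.84 and 8.34 CPM in RPE replicate 2. Each thus passed the minimum of 10 CPM only through RPE replicate 1, and their selection favours such ratios.

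**Figure D4:**
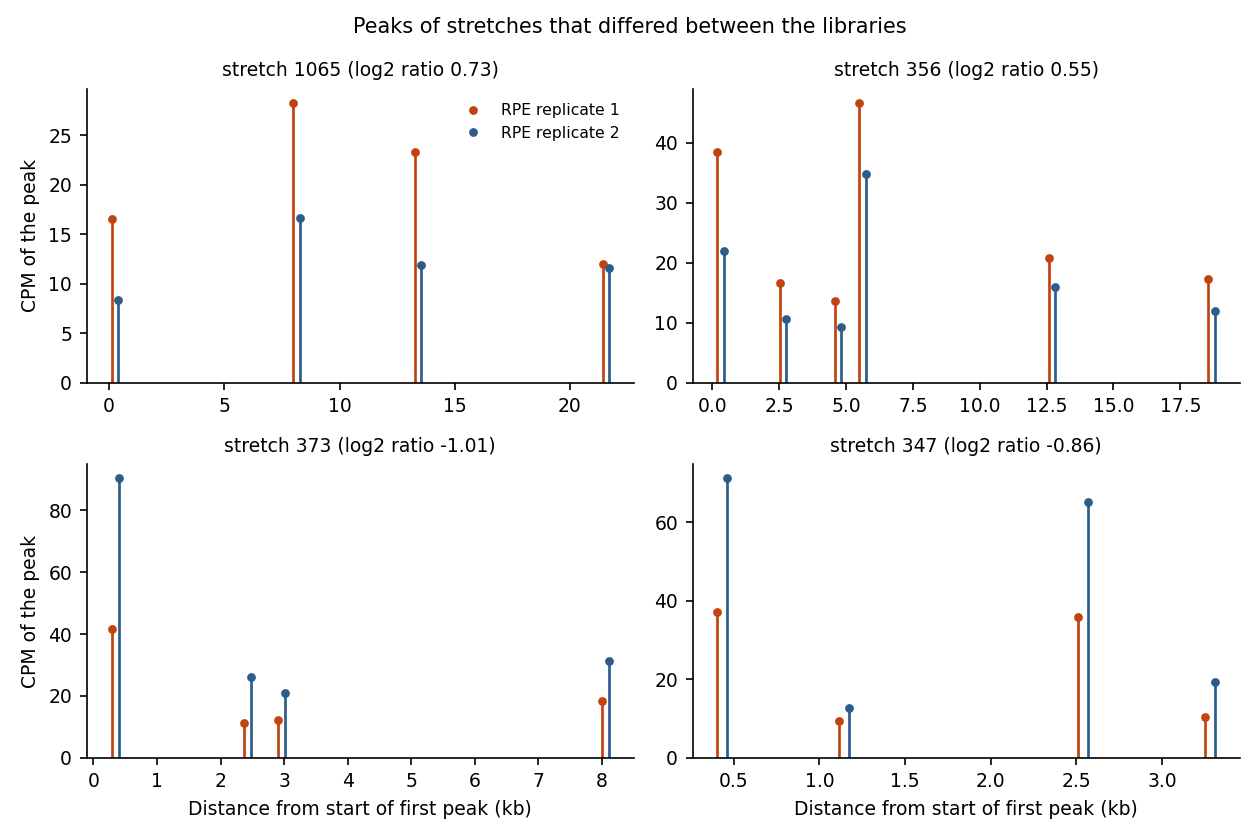
CPM of each strong peak (vertical axis) against its distance in kb from the start of the first peak (horizontal axis) in stretches 1065 and 356, which were higher in RPE replicate 1, and stretches 373 and 347, which were lower in it. In stretch 1065 the last peak is level between the libraries, and in stretches 373 and 347 each peak is higher in RPE replicate 2.

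To connect stretches with genes, names were taken from shortened tables of the study that pair peaks with genes by distance or give gene positions in danRer10. These tables list genes and peaks that the study selected as differing between domains, so a stretch without a name cannot be read as lacking a gene. A name was found for 278 stretches (23.1%). Of a list of 26 RPE and pigment genes, 16 were in the tables and 11 had a stretch in or near them, beside 8.90% of all 3224 genes in the tables. These shares cannot be compared directly. Peaks were paired with only some genes, partly those that the study chose to test, and other genes could be placed by position alone. Among the 11, tead1a, tead1b, smad6b and tcf12 had a stretch through paired peaks only. The stretches of these 11 genes had 58.97 to 250 summed CPM. Of their 61 strong peaks 18 (29.5%) differed between the libraries, 16 of them higher in RPE replicate 1, beside 37.1% of all members, of which 92.8% were higher in RPE replicate 1. The median log2 ratio of these 11 stretches was 0.13, against 0.18 for all stretches. None of 16 neural retina genes was in the tables under its own name, and nothing can be read from that. The tables did hold transcripts named after Six3 and SOX2. All 11 strong peaks of stretch 80 lay in the interval listed for Six3os1_5, and 6 of 13 of stretch 69 in that for SOX2OT_exon1. Their distance to six3a, six3b or sox2 was not examined.

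The stretch at bhlhe40 (stretch 466, chr11:35494046-35502861), which encodes a basic helix-loop-helix factor and an early RPE marker in zebrafish, had 4 strong peaks in 8.82 kb. Along the stretch they were at 32.1, 23.7, 32.5 and 27.0 CPM in RPE replicate 1 and at 30.5, 20.4, 30.7 and 31.3 CPM in RPE replicate 2. No peak differed between the libraries, and the log2 ratio was 0.03. Of the 4 peaks, 1 lay in the gene body. The transgene carries an enhancer from this locus, and reads from it cannot be told apart from those of the endogenous copy.

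At otx2 (stretch 369, chr17:44101747-44136116), a homeobox gene required for RPE specification in vertebrates, 9 strong peaks spread over 34.4 kb, with 127 summed CPM in RPE replicate 1 and 126 in RPE replicate 2. Single peaks were at 10.4 to 20.2 CPM in RPE replicate 1 and at 9.67 to 23.7 CPM in RPE replicate 2, and 3 lay in the gene body. The last, peak79788, was lower in RPE replicate 1 (19.0 against 23.7 CPM, exact binomial test, adjusted p = 0.0136), and peak79780 was higher (13.8 against 10.5 CPM, adjusted p = 0.0235). No peak dominated, as the strongest held 16.8% of the CPM.

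The Mitf family genes tfec and mitfa encode transcription factors of pigment cells. All 5 strong peaks of stretch 778 (chr4:5992217-6008614) lay in the body of tfec. They were at 11.7, 20.1, 12.2, 12.2 and 28.5 CPM in RPE replicate 1 and at 12.6, 17.5, 10.2, 15.2 and 29.4 CPM in RPE replicate 2, and none differed. The sums of 84.6 and 84.9 CPM were almost equal. At mitfa (stretch 1117, chr6:43389887-43411380), 3 of 4 strong peaks lay in the gene body. The peaks had 20.04, 11.5, 13.4 and 18.2 CPM in RPE replicate 1 and 16.2, 10.8, 11.8 and 16.0 CPM in RPE replicate 2. Only the first passed the test, higher in RPE replicate 1 (adjusted p = 0.0335). With 63.1 and 54.8 summed CPM it was among the lowest ranked stretches.

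**Figure D5:**
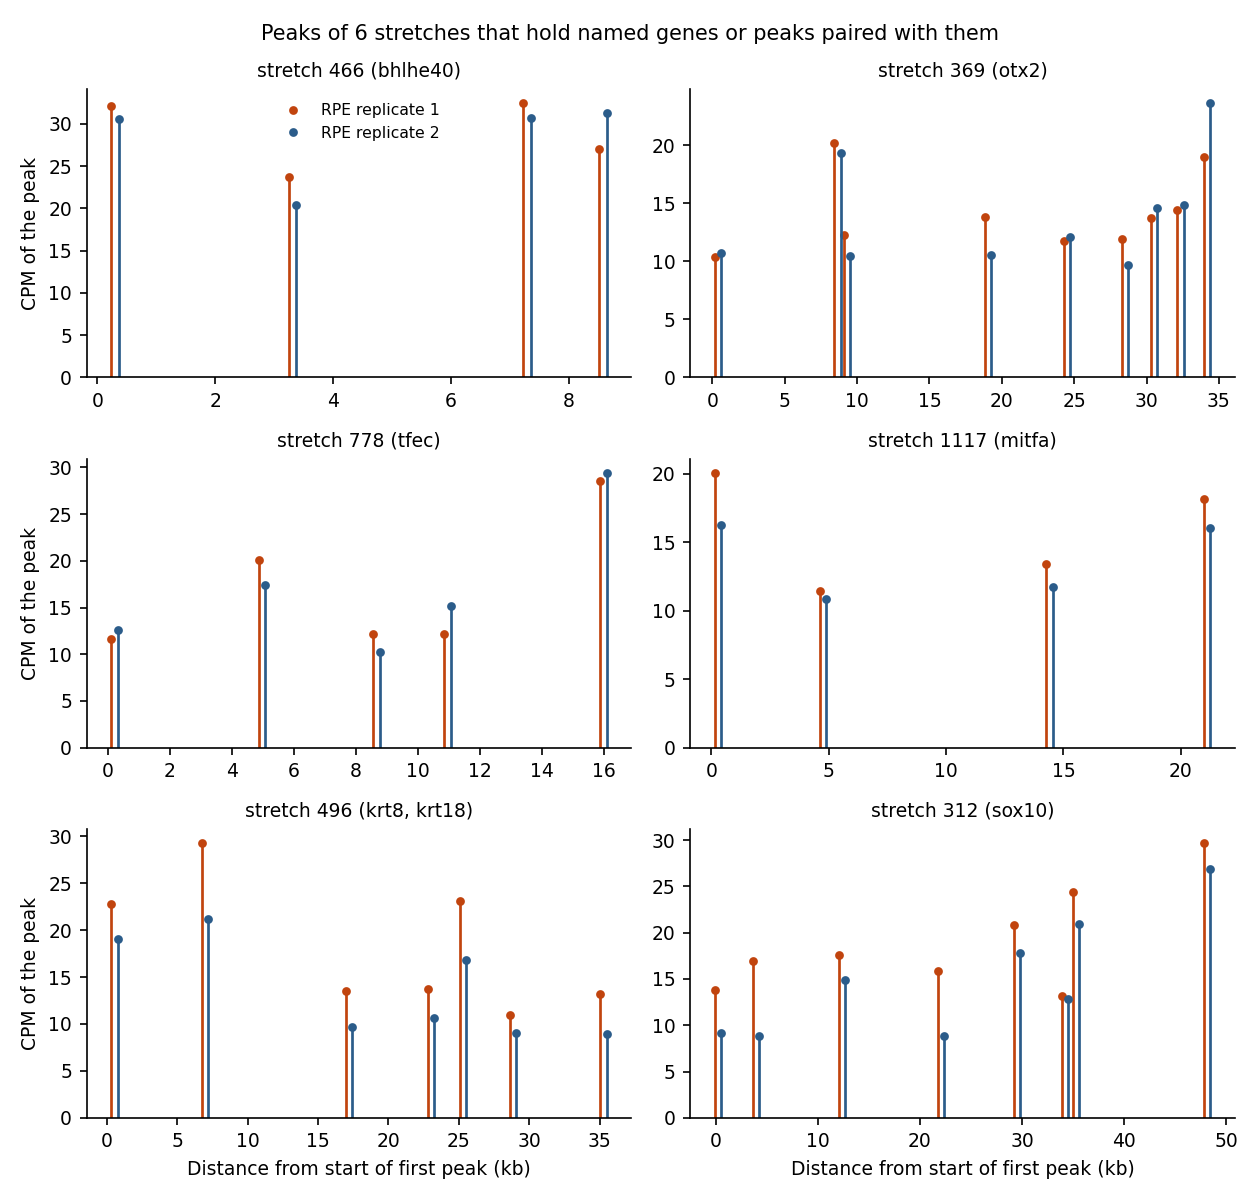
CPM of each strong peak (vertical axis) against its distance in kb from the start of the first peak (horizontal axis) in the stretches of bhlhe40, otx2, tfec, mitfa, krt8 with krt18, and sox10, for RPE replicate 1 and RPE replicate 2. The libraries are near each other at bhlhe40, otx2 and tfec, while every peak of the krt8 and krt18 stretch is higher in RPE replicate 1.

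Genes for AP-2 and TEAD transcription factors, which act in epithelia and as partners of Hippo pathway effectors, also had stretches. At tfap2a (stretch 1051, chr24:8577545-8596624) summed CPM was 71.2 in RPE replicate 1 and 59.5 in RPE replicate 2, with 2 of 4 peaks higher in RPE replicate 1. At tfap2c (stretch 878, chr6:56155026-56163987) the sums were 78.0 and 76.4 CPM, and no peak differed. One peak, peak199495, held 49.8% of that stretch, with 39.5 and 37.4 CPM. Among the TEAD genes, tead1a (stretch 509, chr25:16259318-16267099) had 117 CPM in RPE replicate 1 and 102 CPM in RPE replicate 2. For tead1b (stretch 956, chr7:65788928-65808289) the sums were 74.5 and 68.0 CPM. The body of tead3b (stretch 717, chr6:54589159-54603670) contained all 4 strong peaks of its stretch, with 97.5 and 83.2 CPM.

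The richest stretch among the RPE and pigment genes was that paired with tcf12, which encodes a basic helix-loop-helix factor of the E protein class (stretch 55, chr7:52278621-52341957). Its 12 strong peaks, 6 of them paired with tcf12, had 261 summed CPM in RPE replicate 1 and 238 in RPE replicate 2. Of the 12, 4 were higher in RPE replicate 1, and 1, peak210332, was lower (8.63 against 14.9 CPM). Near smad6b, for an inhibitory Smad of BMP signalling (stretch 253, chr18:19683424-19736037), 7 strong peaks had 166 and 133 CPM, and 4 were higher in RPE replicate 1. The gene was paired with a weaker peak inside this stretch. Its log2 ratio of 0.32 was the highest among these 11 stretches.

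Of 14 keratin and desmosome genes, 9 were in the tables and 3 had a stretch. Peaks paired with krt8 and krt18, which encode the keratins of simple epithelia, shared stretch 496 (chr23:10355606-10391112). All 7 strong peaks had a higher CPM in RPE replicate 1, at 22.8, 29.3, 13.5, 13.8, 23.1, 10.96 and 13.2 CPM, against 19.1, 21.2, 9.72, 10.7, 16.8, 9.06 and 8.90 CPM in RPE replicate 2. The test was passed by 5 of the 7, and the log2 ratio was 0.41, above the 0.25 that marks the upper quartile of all stretches. At jupa, the gene of the junction protein plakoglobin (stretch 1101, chr11:11722097-11758552), the sums were 62.4 and 60.3 CPM and 1 of 5 peaks differed, lower in RPE replicate 1.

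Accessibility at markers of the sorted and of other cell types was read from listed peaks in the gene bodies or paired with the genes, which is not expression. All 8 RPE markers had a strong peak, but the share of all genes in the tables with one is not given here. A peak in a stretch was found for 4 of them (bhlhe40, mitfa, tfec and otx2), whereas tyr, dct, pmela and tyrp1b had none. Over these 8 genes the CPM was 1014 in RPE replicate 1 and 970.0 in RPE replicate 2, a log2 ratio of 0.06. Single genes differed in direction. The log2 ratio was below 0 at dct (-0.35), pmela (-0.10) and otx2 (-0.04), and above 0 at the others, up to 0.19 at tyr. Of 6 epidermal markers 5 were in the tables, 4 with a strong peak (tp63, grhl1, cdh1 and krt4) and none with a stretch. They had 477 and 435 CPM (log2 ratio 0.13, single genes 0.04 to 0.28). Among them, krt4 and krt5 were also on the keratin list above. The study reports keratin genes as raised in RPE cells, so these markers may not stand for epidermis alone. Of 4 neural crest markers 2 were in the tables, with 62.7 CPM in RPE replicate 1 and 57.6 CPM in RPE replicate 2 (log2 ratio 0.12). One of these, sox10, a regulator of neural crest and its pigment cells, lay at stretch 312 (chr3:1977819-2026346), whose 8 strong peaks had 152 CPM in RPE replicate 1 and 120 CPM in RPE replicate 2. The log2 ratio of this whole stretch was 0.34, and 3 of 8 peaks were higher in RPE replicate 1. The listed peaks in or paired with sox10 itself, of which 2 were strong, had 60.3 and 55.4 CPM (log2 ratio 0.12). Of the muscle markers 1 of 3 was in the tables, at 10.8 and 12.1 CPM, and of 3 blood and endothelial markers none was. These sums cover unequal numbers of listed peaks, with 6 to 26 per RPE marker and 7 to 30 per epidermal marker in the tables. There were 8 at sox10, 1 at the other neural crest marker and 3 at the muscle marker. The sums can therefore not be compared between cell types. The part of other cell types in the ratios of stretches was not tested.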

How the data were processed

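ATAC-seq was analysed in sorted RPE cells at 23 hpf (1 group, 2 replicates). According to the methods of the study, the authors mapped paired reads to danRer10 with Bowtie2, removed duplicates, shifted read starts to the transposase position and kept short, nucleosome-free inserts. MACS2 is named in the submitters' processing notes. Raw counts, not scaled to depth, were deposited by the authors for an identical peak list in both libraries, and whether reads or pairs were counted is not given in the sources used here. Duplicate removal lowers the strongest peaks most, and counts of both ends of a pair would make intervals too narrow.

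Each library was scaled to CPM by the sum of its counts over all listed peaks. Stretches were joined as described above. Ratios of single peaks used 0.5 added counts. Peaks were tested between libraries with the exact binomial test above. It was tried on simulated counts with counting error only, and joining on a made example. Such counts cannot show how the test behaves where libraries vary beyond counting error. TMM factors (edgeR 4.0.16) were 0.969 and 1.03, and DESeq2 1.42.0 size factors 1.07 and 0.935, for replicates 1 and 2. Trends were removed by locally weighted regression (span 0.3). The analysis ran in R 4.3.3 and in Python 3.11.15 with scipy 1.17.1, statsmodels 0.14.6, pandas 2.3.3 and numpy 2.4.6.

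The members, lists and rules were chosen with earlier results of these data known. Stretches were named when among the 8 with the highest summed CPM, the 5 with the most strong peaks, the 3 with the highest or lowest ratio or the 3 longest. Others were the 3 with the largest or smallest share in 1 peak, the last, or those with a gene of the lists. Single peaks were named as the strongest of such stretches or for the 3 highest and 3 lowest ratios, and others were chosen after their values were seen. The supplementary tables of the study gave only gene names and positions, and their values were not used. Positions refer to danRer10 and count from 1. Motifs were left out, as no danRer10 sequence was used here. Alternatives were other minimum CPM, gap and number of peaks, retention of dense runs, other scalings, CPM per kb, removal of trends, a minimum of 10 counts, and leaving out each replicate.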

Additional observations from a re-analysis of the deposited data

How the results depend on the processing

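The number of stretches followed the thresholds of the rule. A peak minimum of 8 CPM gave 1903 stretches with 11577 peaks and 20.7% of counts, and a minimum of 12 CPM gave 773, 4333 and 9.997%. At least 3 peaks gave 2320 stretches and 20.73% of counts, and at least 5 gave 706 and 10.3%. Gaps of up to 10 and 15 kb gave 11.7% and 16.7% of counts. Strong peaks chosen by CPM per kb of width, in the same number, gave 1486 stretches with 9098 peaks and 16.5% of counts. In the 1202 stretches of the main rule, the peak with the highest CPM per kb held a median of 28.6% of the summed CPM per kb. Without one or the other replicate the rule gave 1054 to 1322 stretches, 6028 to 7829 peaks and 12.1 to 16.6% of counts. Keeping dense runs and other scalings left the number of stretches between 1203 and 1255.

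The median log2 ratio of stretch peaks was 0.28 with TMM and with DESeq2 scaling, 0.18 with totals of chromosomes 1 to 25, 0.092 after removal of the trend with the summed count and 0.20 after removal of the trend with width, the last chosen after seeing the data. The members that differed numbered 3613 with TMM, 3649 with DESeq2 size factors and 1683 after removal of the trend with the summed count. The excess of members over other strong peaks in median log2 ratio was 0.14 after removal of the trend with width and 0.13 after removal of that with the summed count. It was also 0.13 with a minimum of 10 counts, but this minimum removed no member, since each had at least 131 counts in either library. Other scalings add the same amount to every ratio and cannot change this excess. The comparison was also chosen after seeing the data. TMM and DESeq2 scaling moved every stretch ratio up by 0.09. The stretch near otx1a (stretch 36) then stood at 0.037 with TMM and 0.040 with DESeq2 scaling, against -0.05 with library totals, and stretch 408 at 0.069 without its strongest peak, against -0.55 with it. No other named stretch whose interval excluded 0 changed sign under these settings.

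No paired analysis was possible because the libraries form a single group. Both libraries come from 1 stage and 1 reporter line, peaks rest partly on neural retina libraries, and a member rests on as few as 131 counts in a library.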

Other observations

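Further stretches with gene names were chosen after their values were seen, and only genes with a stretch were taken up, so their counts describe these stretches and no more. Over all members 37.1% differed between the libraries, 92.8% of these higher in RPE replicate 1. Genes of the AP-1 family, whose products bind DNA as dimers of Fos, Jun and ATF proteins, had 5 stretches ranked between 78 and 242. At atf3 (stretch 78, chr20:37873368-37900760) the summed CPM was 242 in RPE replicate 1 and 203 in RPE replicate 2, and at fosl1a (stretch 108, chr14:30383514-30413541) 213 and 195.3. The stretches at fosb, jdp2b and jun had 169, 209 and 165 CPM in RPE replicate 1 and 143, 178 and 138 CPM in RPE replicate 2. Most strong peaks of these stretches lay outside the genes. The gene bodies held 4 of 11 at fosl1a, 2 of 8 at atf3, 2 of 8 at fosb, 1 of 6 at jdp2b and 1 of 5 at jun. Of the 38 strong peaks of the 5 stretches 16 (42.1%) differed between the libraries, 15 of them higher in RPE replicate 1, close to the share over all members. Genes of the gadd45 family, small proteins induced by stress, had 5 stretches. The highest, at gadd45bb (stretch 49, chr2:36957290-37047253), had 15 strong peaks, 1 of them in the gene body, with 290 CPM in RPE replicate 1 and 234 CPM in RPE replicate 2.

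Nuclear receptors of the nr2f group, regulators of eye and brain patterning in vertebrates, were paired with stretches of very different level. The first stretch paired with nr2f5 (stretch 14, chr16:46250751-46310469) had 15 strong peaks, of which only 1 was paired with the gene. Its sums were 424 CPM in RPE replicate 1 and 374 CPM in RPE replicate 2. The second, stretch 420, had 119 and 122 CPM, with 1 of 5 strong peaks paired with nr2f5 and 1 with rpz. At nr2f6b (stretch 109, chr11:6104817-6120489) all 6 peaks were higher in RPE replicate 1, with 231 and 177 CPM, while at nr2f1a and nr2f1b 1 peak differed in each. Of the 6 strong peaks in the stretch of nr2f1a, 4 were paired with that gene and 4 with arrdc3a. The stretch paired with otx1a (stretch 36, chr1:50215025-50280172) had 14 strong peaks, of which only 1 was paired with the gene. This stretch had 289 CPM in RPE replicate 1 and 300 CPM in RPE replicate 2. Its 3 peaks that differed were all lower in RPE replicate 1, against the direction of most stretches. The log2 ratio of its summed counts was -0.05, and 0.037 with TMM scaling.

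The zinc finger gene klf6a was paired with 3 neighbouring stretches on chromosome 24, each of which was also paired with the gene ccny. Only stretch 106 overlapped the body of klf6a. The log2 ratios of the 3 stretches were 0.24, 0.45 and 0.53, and 12 of their 22 peaks (54.5%) differed, all higher in RPE replicate 1. Stretches in or near hox genes, which pattern the body axis, had 71.0 to 101 summed CPM, and 6 of 23 peaks (26.1%) differed. At pax3a 0 of 7 peaks differed and at pax7b 3 of 5, both genes of dorsal neural tube and neural crest. All 6 strong peaks of stretch 409 lay in the interval listed for lef1, which encodes a transcription factor of Wnt signalling, with 133 and 110 CPM.

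Weaker listed peaks of 5 to 10 CPM had a median log2 ratio of 0.16 inside stretches (1882 peaks), against 0.02 outside them (27539 peaks). Strong peaks in the 20 joins that were formed by the same minimum and gap but left out for a dense run had a median of 0.20.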
